A study of Mus musculus with 16 samples.

Results

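The genes described here are 39 components of protein folding, quality control and stress signalling in the endoplasmic reticulum (ER), the compartment in which secreted and membrane proteins are folded. They comprise 23 chaperones and folding enzymes, 13 components of ER-associated degradation (ERAD) and 3 signalling genes, chosen by name out of 18193 genes with a probe set of their own on the array. Each gene was represented by its probe set with the highest mean signal over the 16 arrays. After a filter on dim probe sets, 38 of the 39 members were tested among 11451 genes. Derl3, a derlin of the degradation machinery, was the member left out, with mean signals between 26.3 and 69.9 in the 4 groups, below the array medians of 90.1 to 113.

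RNA came from mouse embryonic fibroblasts of 2 genotypes, CHOP+/+ (wild-type) and CHOP-/- (knockout). Plates of each genotype were either kept without stress or exposed to 1 µM MG132, an inhibitor of the proteasome, for 8 h and harvested together, with 4 plates and 4 arrays in each of the 4 groups. All groups grew in high-glucose DMEM with 10% fetal bovine serum. For the untreated groups the labels disagree, since the treatment field reads none whereas the descriptions name the solvent DMSO for 8 h. It is not stated whether each genotype was more than 1 isolate, or whether the plates of a group were separate isolates, so the p-values below measure the spread between plates. The title of the series gives its aim as the search for genes that need CHOP in the response to proteasome inhibition.

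Proteins entering the ER are bound by the HSP70 chaperone BiP and its co-chaperones, by the calnexin and calreticulin cycle for glycoproteins, and by protein disulfide isomerases. Proteins that fail to fold are recognised by EDEM proteins and OS-9, passed through the HRD1 ubiquitin ligase complex in the membrane, pulled out by the p97 ATPase and destroyed by the proteasome. Unfolded proteins activate the sensors IRE1, PERK and ATF6. IRE1 splices the Xbp1 transcript, and the resulting transcription factor, with ATF6, drives chaperone and ERAD genes, whereas PERK acts through ATF4 and CHOP, the product of Ddit3.

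The targeted gene was examined before the members. Ddit3 had signals of 1017 ± 101 (mean ± SD, n = 4, as throughout) on untreated and 7724 ± 587 on treated arrays of the wild type, against 368 ± 24 and 396 ± 38.9 in the knockout. Its dim probe set 1443897_at had signals of 258 ± 66.9, 286 ± 48.7, 256 ± 47.4 and 290.2 ± 41.7 in the same order. Neither the deleted part of Ddit3 nor the position of its probes was known here. Arrays of a group correlated at 0.985 or more, and the 3′ to 5′ signal ratio, a measure of RNA integrity, was 0.79 to 0.877 for Gapdh. For Actb it moved with MG132. It was 1.111 to 1.192 on untreated and 1.193 to 1.265 on treated wild-type arrays, then 1.141 to 1.164 and 1.187 to 1.23 on knockout arrays, so that every treated array lay above the untreated ones of its genotype. Its part in the MG132 responses of the members was not tested. Of 9 tested fibroblast markers, 4 were higher and 3 lower in untreated knockout cells, and Vim and Col1a2 did not pass. Dcn, a matrix proteoglycan, had the largest difference, with signals of 38.5 ± 37.3 for wild-type and 1075 ± 30.2 for knockout cells. Pdgfra, a growth factor receptor, had a signal of 2351 ± 239 in wild-type and 118 ± 43.7 in knockout cells, whereas Thy1, a surface glycoprotein, gave 228 ± 21.7 and 2727 ± 159. With MG132 3 of these markers rose and 4 fell in wild-type cells, and 1 rose and 5 fell in knockout cells, among them the collagen genes Col3a1 (-1.36 and -2.19) and Col1a1 (-0.60 and -1.21). The part of these markers in the differences of the members was not tested. Since the samples are bulk RNA, fewer cells of a kind and less RNA per cell cannot be told apart.

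Promoter windows of members are shown because the genes of this pathway are known for a shared control element, the ER stress response element (ERSE), bound by NF-Y at CCAAT and by ATF6 or XBP1 at CCACG. Windows of 300 bases, from 250 before to 50 after the annotated start, came from RefSeq on the mouse build GRCm38.p6 and were found for 34 of the 39 members. None was found for Hspa13, Hyou1, Manf, Sil1 and Derl1. The ERSE was searched on both strands as CCAAT and CCACG separated by 9 bases, and ERSE-II as ATTGG and CCACG separated by 1 base. The stretches below run 5′ to 3′ on the strand of the gene, with the element in capitals. In Calr and Creld2 and at the second match of Hsp90b1 the element lies on the opposite strand and so reads from CGTGG to ATTGG.
Hspa5: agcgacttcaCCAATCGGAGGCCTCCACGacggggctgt
Hsp90b1: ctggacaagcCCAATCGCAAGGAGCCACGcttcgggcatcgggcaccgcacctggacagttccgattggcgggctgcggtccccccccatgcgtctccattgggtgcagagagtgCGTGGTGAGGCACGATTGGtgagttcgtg
Dnajc3: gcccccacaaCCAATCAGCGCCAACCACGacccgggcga
Calr: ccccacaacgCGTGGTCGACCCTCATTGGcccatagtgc
Canx: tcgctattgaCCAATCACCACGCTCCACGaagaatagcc
Pdia6: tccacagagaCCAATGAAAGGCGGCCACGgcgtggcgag
Creld2: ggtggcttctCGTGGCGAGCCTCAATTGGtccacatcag
Syvn1: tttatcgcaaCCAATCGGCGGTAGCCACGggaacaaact
Herpud1: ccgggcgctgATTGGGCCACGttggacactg
The stretch of Hspa5 is chr2:34772015-34772053 on the plus strand, at -75 to -37 from the start. That of Herpud1, the member with an ERSE-II before its start, is chr8:94386367-94386397 on the plus strand, at -62 to -32. Also on the plus strand are Dnajc3 at chr14:118937817-118937855, Pdia6 at chr12:17266481-17266519, Creld2 at chr15:88819510-88819548 and Syvn1 at chr19:6046522-6046560. On the minus strand are Hsp90b1 at chr10:86705523-86705666, Calr at chr8:84847065-84847103 and Canx at chr11:50325790-50325828. These stretches precede the annotated start of the genes. An ERSE was found in 9 members, these 8 and Derl3, against 39 of 32851 windows of the same kind (0.119%). ERSE-II was found in 2 members, Herpud1 and Dnajb11, against 12 windows overall (0.0365%), and the match of Dnajb11 lies after the start, at 8 to 18. ERSE and ERSE-II together mark 11 members. The members were chosen by name as components of this pathway, so this share is a description of the list, and a match is not a proven binding site.

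The response to MG132 of the members ran in both directions in each genotype. In wild-type cells 14 of the 38 tested members rose and 12 fell. Among all tested genes 27.2% rose and 36.9% fell, at a limma p adjusted over all of them and below 0.05, which is the meaning of rose, fell, higher and lower throughout. In knockout cells 20 members rose and 10 fell, against 25.7% and 36.8% of all genes. The median log2 change, taken on log2(signal + 16) like every log2 value here, was 0.07 over the members in wild-type and 0.24 in knockout cells, against -0.07 for all genes in each genotype. Changes of at least 2-fold were limited to Dnajb9 and Herpud1 in wild-type cells, and to these, Xbp1 and Dnajc10 in knockout cells, the last of these a decrease. 14 members rose in both genotypes, 8 fell in both, and 5 passed in neither. The decreases count Sel1l by its chosen probe set, although other probe sets of that gene rose in wild-type cells.

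The splits depend on the scale. The deposited arrays share a trimmed mean, and the upper quartile of their signals was 865 to 914 in untreated and 828 to 843 in treated wild-type arrays. It was 858 to 879 and 792 to 815 in the knockout. Centring each array on its median moved all genes upward by 0.20 in the wild-type response and 0.15 in the knockout response, on the log2 scale. After that step 22 members rose and 5 fell in wild-type cells, and 25 rose and 10 fell in knockout cells. Among all genes 4582 then rose and 2860 fell in wild-type cells, while 3995 rose and 3167 fell in knockout cells. The members' median became 0.27 and 0.39, beside 0.13 and 0.07 for all genes.

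**Figure D1:**
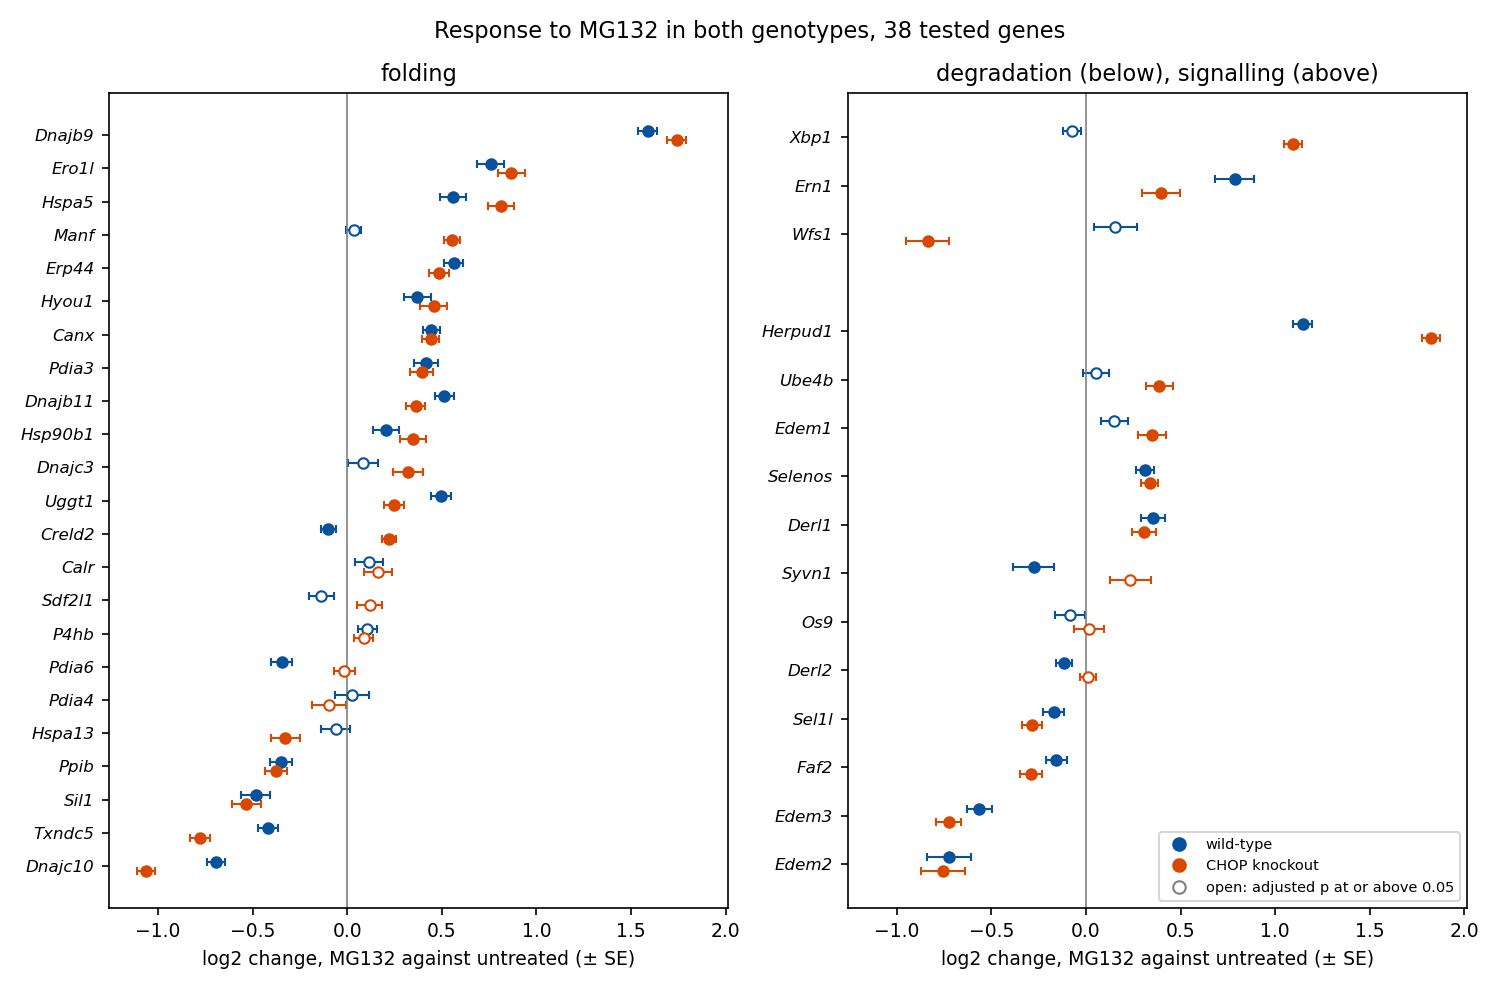
Log2 change with MG132 of each tested member in wild-type and knockout cells, with the standard error of the fit; filled points passed the test. Dnajb9 and Herpud1 lie farthest to the right in both genotypes, and Xbp1 and Wfs1 have the widest separation between the genotypes.

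Among the HSP70 chaperones and their exchange factors, Hspa5 and Hyou1 rose and Sil1 fell in both genotypes. Hspa5 encodes BiP, the main HSP70 chaperone of the ER lumen and the gene whose ERSE is printed first above. Its signals were 26423, 28197, 33370.1 and 27869.9 on the untreated and 42047, 38612, 46718 and 43126 on the treated wild-type arrays. On the knockout arrays they were 25515, 27226, 29707 and 25639 without and 46704, 46029.5, 49376 and 47462 with MG132. In each genotype every treated array lay above every untreated array. The log2 change was 0.56 (SE 0.07, adjusted p = 3.7e-07) in wild-type and 0.81 (SE 0.07, adjusted p = 1.89e-09) in knockout cells, and the difference between these responses, 0.25 (SE 0.10, adjusted p = 0.0533), did not pass the test. That difference passed on another probe set of the gene, 1427464_s_at, at 0.39 (SE 0.07, adjusted p = 0.000741). It also passed with quantile normalisation, the mean over probe sets and the replicate number as a block. It did not pass with other pseudocounts, no filter, median centring or no variance trend. Leaving out untreated wild-type replicate 1, untreated knockout replicate 3 or treated wild-type replicate 3 made it pass (adjusted p 0.0218 to 0.0255), and leaving out any other array did not.

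Hyou1, an HSP70-related exchange factor for BiP, differed by genotype more than by treatment. Its signals were 1643, 1443, 1363 and 1312 in untreated wild-type cells and 3080.2, 2758, 2704 and 2722 in untreated knockout cells. With MG132 they reached 2041, 1828, 1839 and 1741 in wild-type and 4056, 4081, 3588 and 3763 in knockout cells. The 4 groups did not overlap where compared, and the highest wild-type array with MG132 stayed below the lowest untreated knockout array. Hyou1 rose with MG132 by 0.37 (SE 0.07, adjusted p = 0.000127) and 0.46 (SE 0.07, adjusted p = 1.19e-05), and was higher in the knockout by 0.96 (SE 0.07, adjusted p = 4.07e-10) untreated and 1.05 (SE 0.07, adjusted p = 1.04e-10) treated. The chosen probe set carries the suffix _s_, which the array's maker gives to probes that match more than 1 transcript. The knockout response was lost without suffixed probe sets, and its further probe sets 1423290_at and 1451913_a_at gave 0.14 (SE 0.09, adjusted p = 0.217) and 0.46 (SE 0.22, adjusted p = 0.0834) there.

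Sil1, the other nucleotide exchange factor of BiP, moved the opposite way. Wild-type arrays gave 1241, 1202, 1338 and 1088 without and 802, 924, 893 and 839.9 with MG132, and knockout arrays 1055, 1084, 915 and 1043 untreated and 677, 718, 723 and 688 treated. Treated arrays were the lower ones in each genotype, without overlap. The log2 change was -0.48 (SE 0.08, adjusted p = 1.29e-05) in wild-type and -0.53 (SE 0.08, adjusted p = 4.15e-06) in knockout cells. Hspa13, an HSP70 protein of microsomes, fell in knockout cells, at -0.33 (SE 0.08, adjusted p = 0.000988), with overlapping arrays, and had a log2 change of -0.06 (SE 0.08, adjusted p = 0.513) in wild-type cells. Its probe sets 1429502_at and 1453172_at also fell in knockout cells only. The dimmer 1430026_at rose in wild-type cells, by 0.32 (SE 0.13, adjusted p = 0.0392), and gave -0.18 (SE 0.13, adjusted p = 0.251) in knockout cells. The difference between responses was -0.27 (SE 0.11, adjusted p = 0.0758) on the chosen probe set. It passed on 1429502_at, at -0.35 (SE 0.11, adjusted p = 0.0289), and on no other.

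Of the 4 HSP40 co-chaperones, Dnajb9 and Dnajb11 rose and Dnajc10 fell in both genotypes. Dnajb9 encodes ERdj4, which helps BiP hold IRE1 in check. Its signals were 2838, 2640.2, 2468 and 2534 on untreated and 7891, 7879, 7998 and 7839.7 on treated arrays of the wild type. In knockout cells they were 1279.6, 1236, 1218 and 1227 untreated and 4374, 4203, 3906 and 4266 treated. The groups stood apart in all 4 comparisons, and the knockout was the lower genotype at both treatments. The increase was 1.59 (SE 0.05, adjusted p = 5.82e-16) in wild-type and 1.74 (SE 0.05, adjusted p = 1.82e-16) in knockout cells, and the difference between the increases was 0.15 (SE 0.07, adjusted p = 0.114). The knockout minus wild-type difference was -1.07 (SE 0.05, adjusted p = 2.58e-13) before and -0.92 (SE 0.05, adjusted p = 3.08e-12) after treatment.

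Dnajb11, or ERdj3, which delivers unfolded proteins to BiP, had signals of 3892, 4003, 3748 and 3998 before and 5459, 5905, 5513 and 5482 after MG132 in the wild type. In the knockout these were 3998, 4122, 4217 and 4222 untreated and 5576, 4849, 5235 and 5653 treated. Every treated array exceeded the untreated arrays of its genotype, and genotypes overlapped at each treatment. Dnajb11 rose by 0.51 (SE 0.05, adjusted p = 1.78e-08) and 0.36 (SE 0.05, adjusted p = 2.75e-06).

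Dnajc10, or ERdj5, a disulfide reductase that prepares proteins for degradation, had the largest decrease of the members in knockout cells. Its arrays read 5738, 5728, 5238 and 5755 on untreated and 3492, 3659, 3404 and 3301 on treated arrays of the wild type. The knockout arrays read 5514, 5513, 5173 and 5239 untreated and 2543, 2678, 2507 and 2479 treated. Untreated genotypes overlapped, whereas all treated knockout arrays lay below all treated wild-type arrays. Dnajc10 fell, with log2 changes of -0.69 (SE 0.05, adjusted p = 1.09e-10) in wild-type and -1.07 (SE 0.05, adjusted p = 1.87e-13) in knockout cells, a deeper decrease in the knockout with a difference of -0.37 (SE 0.07, adjusted p = 0.000375). Dnajc3, or p58IPK, an inhibitor of PERK, rose in knockout cells by 0.32 (SE 0.08, adjusted p = 0.00143), with 0.08 (SE 0.08, adjusted p = 0.382) in wild-type cells on the chosen probe set. Its probe sets 1449372_at and 1419162_s_at rose in wild-type cells too, by 0.71 (SE 0.05, adjusted p = 4.37e-10) and 0.81 (SE 0.07, adjusted p = 1.97e-09).

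Among Hsp90b1 and the small luminal factors, the responses of Manf, Creld2 and Sdf2l1 differed between the genotypes, each higher in the knockout. Manf, a secreted factor that binds BiP, had signals of 12802, 13593, 14372 and 13216 on untreated and 14207, 13544, 13858 and 13632 on treated arrays of the wild type, which overlap. In knockout cells the signals were 11993, 12283, 12505 and 12278 untreated and 18494, 17457, 18604 and 17541 with MG132, the latter above every other array. The change was 0.03 (SE 0.04, adjusted p = 0.49) in wild-type and 0.55 (SE 0.04, adjusted p = 3.93e-10) in knockout cells, and the difference between responses was 0.52 (SE 0.06, adjusted p = 1.78e-06). Before treatment Manf was lower in the knockout, with a log2 difference of -0.14 (SE 0.04, adjusted p = 0.00817), and after treatment it was higher, at 0.38 (SE 0.04, adjusted p = 1.06e-07).

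Creld2, a secreted ER stress factor with disulfide isomerase activity, showed opposite calls. Its wild-type arrays gave 4689.9, 4871, 4764 and 4617 without and 4436, 4392, 4403 and 4429.5 with MG132, a narrow and complete separation. Its knockout arrays gave 5284, 5217, 5316 and 5479.5 untreated and 6045, 6121, 6253 and 6392 treated, separated upward. The log2 change was -0.10 (SE 0.04, adjusted p = 0.028) in wild-type and 0.22 (SE 0.04, adjusted p = 4.69e-05) in knockout cells, with a difference of 0.32 (SE 0.05, adjusted p = 0.000183). The wild-type decrease was lost without 1 of 4 arrays (untreated replicates 2 and 3, treated replicates 2 and 3, adjusted p up to 0.0813) and became 0.10 after centring on the median. Its higher response in the knockout passed in every alternative tried.

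Sdf2l1, a luminal partner of ERdj3, had log2 changes of -0.14 and 0.12 in wild-type and knockout cells, neither past the test. The difference between them was 0.26 (SE 0.09, adjusted p = 0.0469), and it was lost when any 1 of 12 of the 16 arrays was left out (adjusted p up to 0.0919). Hsp90b1, or GRP94, the HSP90 chaperone of the ER, rose by 0.20 (SE 0.07, adjusted p = 0.0129) in wild-type and 0.35 (SE 0.07, adjusted p = 0.000147) in knockout cells. The wild-type call was lost without untreated replicate 2 (adjusted p = 0.0547) or treated replicate 4 (adjusted p = 0.0529). Ppib, the ER cyclophilin that catalyses proline isomerisation, fell, with log2 changes of -0.35 (SE 0.06, adjusted p = 2.56e-05) and -0.38 (SE 0.06, adjusted p = 1.03e-05), and the wild-type call was lost after centring on the array median.

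In the lectin cycle, Canx and Uggt1 rose in both genotypes and Calr passed in neither on its chosen probe set. Canx encodes calnexin, the membrane-bound lectin chaperone, and rose by 0.45 (SE 0.04, adjusted p = 3.09e-08) and 0.44 (SE 0.04, adjusted p = 4.23e-08). Uggt1 encodes the glucosyltransferase that marks unfolded glycoproteins for another round of binding. It read 3633, 3229.6, 3112 and 3569 before and 4659.9, 4737, 4749 and 4949 after MG132 in the wild type, then 3205, 3378, 3064 and 3237 untreated and 3687, 3997, 3871 and 3747 treated in the knockout. Treated arrays were above untreated arrays in each genotype, and the treated wild-type arrays were above those of the knockout. The increases were 0.50 (SE 0.05, adjusted p = 6.76e-08) and 0.25 (SE 0.05, adjusted p = 0.000405), smaller in the knockout with a difference of -0.25 (SE 0.07, adjusted p = 0.0167). Averaging its 3 probe sets turned the knockout value to -0.09. That average includes 1432318_at, which did not pass the filter on dim probe sets. The further probe set that passed the filter, 1448009_at, gave 0.147 (SE 0.085, adjusted p = 0.149) in knockout cells. Calreticulin, encoded by Calr, is the soluble lectin, with changes of 0.11 (SE 0.07, adjusted p = 0.189) and 0.16 (SE 0.07, adjusted p = 0.063). Its further probe sets 1456170_x_at and 1433806_x_at rose in knockout cells, by 0.16 (SE 0.05, adjusted p = 0.0152) and 0.20 (SE 0.05, adjusted p = 0.0039), and the knockout call was gained on averaging probe sets, after centring and with the replicate number as a block.

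Among the 7 disulfide enzymes, Ero1l, Erp44 and Pdia3 rose in both genotypes on their chosen probe sets. Ero1l, listed under its current name Ero1a in the reference, encodes the oxidase that recharges disulfide isomerases and is a known CHOP target. Its wild-type arrays read 2610.1, 3186, 3441 and 3462 untreated and 5578, 5174, 5369 and 5279 treated, and its knockout arrays 2792, 2831, 2607 and 2841 untreated and 5001, 4915, 4898 and 5446 treated. The treated arrays of both genotypes overlapped each other and lay above all untreated arrays. Ero1l rose by 0.76 (SE 0.07, adjusted p = 7.6e-09) in wild-type and 0.87 (SE 0.07, adjusted p = 1.21e-09) in knockout cells, and the difference of the responses was 0.11 (SE 0.10, adjusted p = 0.45). Leaving out untreated wild-type replicate 1, the lowest of its group, gave a difference of 0.20 (adjusted p = 0.0399).

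Erp44 retains Ero1 oxidases and other clients in the early secretory pathway. Its signals were 4952, 5386, 5564 and 5446 before and 8035, 7920.1, 8115 and 7482 after MG132 in the wild type. In the knockout they were 5145, 5309, 4684 and 5307 untreated and 7227, 7308, 6708 and 7375 treated, again with treated arrays on top and no overlap within a genotype. It rose by 0.56 (SE 0.05, adjusted p = 6.61e-09) and 0.48 (SE 0.05, adjusted p = 6.77e-08). Its dimmer probe set 1423246_at rose in wild-type cells, by 0.385 (SE 0.10, adjusted p = 0.00256), and gave 0.017 (SE 0.10, adjusted p = 0.901) in knockout cells. That probe set was lower in the knockout, at -0.454 (SE 0.10, adjusted p = 0.000815) untreated and -0.823 (SE 0.10, adjusted p = 8.93e-07) treated. Pdia3, the isomerase that works with calnexin, rose by 0.42 (SE 0.06, adjusted p = 6.69e-06) and 0.39 (SE 0.06, adjusted p = 1.52e-05).

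Pdia6 and Txndc5 fell with MG132. Pdia6, an isomerase that tunes IRE1 and PERK signalling, had signals of 12285, 13467, 14332 and 12889.7 on untreated and 11418, 9706, 10798 and 9778 on treated arrays of the wild type. Its knockout signals were 6464, 6184, 6399 and 6426 untreated and 6302, 6068, 6634 and 6199 treated, an overlapping pair of groups below every wild-type array. The log2 change was -0.35 (SE 0.06, adjusted p = 1.48e-05) in wild-type and -0.02 (SE 0.06, adjusted p = 0.82) in knockout cells, a difference between responses of 0.33 (SE 0.08, adjusted p = 0.00331). The wild-type decrease did not pass after centring on the array median.

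Txndc5, or ERp46, another isomerase, read 7107, 8264, 8164 and 8161 untreated and 5966, 6272, 5661 and 5779 treated in wild-type cells. In knockout cells it read 7169.5, 7238, 7019 and 6674 untreated and 3872, 4312, 4018 and 4140.0 treated. Treated arrays were lower in each genotype, and those of the knockout were the lowest of all. Txndc5 fell, with log2 changes of -0.42 (SE 0.05, adjusted p = 7.9e-07) in wild-type and -0.78 (SE 0.05, adjusted p = 9.9e-11) in knockout cells, deeper in the knockout with a difference of -0.36 (SE 0.07, adjusted p = 0.00118). Its other probe set, 1451091_at, fell in both genotypes, at -0.81 and -0.88, and gave -0.08 (SE 0.09, adjusted p = 0.602) for the difference. Pdia4 and P4hb, further isomerases, passed in neither genotype, with changes of 0.03 and -0.10 for Pdia4 and 0.11 and 0.09 for P4hb.

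In the HRD1 complex, Herpud1 and Derl1 rose in both genotypes. Herpud1 is a short-lived membrane protein that brings ubiquilin and substrates to the complex, and its ERSE-II is printed above. The wild-type arrays read 2369.8, 2807, 2722 and 2576 untreated and 5598, 5734, 6021 and 5853 with MG132. The knockout arrays read 4042, 4184, 4121 and 4316 untreated and 14865, 14343, 14884 and 15061 treated. All 4 groups were separate, in ascending order untreated wild-type, untreated knockout, treated wild-type and treated knockout. Herpud1 rose by 1.15 (SE 0.05, adjusted p = 6.53e-14) in wild-type and 1.82 (SE 0.05, adjusted p = 6.78e-17) in knockout cells, a difference of 0.68 (SE 0.07, adjusted p = 5.13e-07), and was higher in the knockout by 0.67 (SE 0.05, adjusted p = 3.6e-10) untreated and 1.35 (SE 0.05, adjusted p = 4.59e-15) treated. Its other probe set, 1435626_a_at, gave 1.12 and 1.85.

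Derl1, a derlin that forms part of the exit channel, had signals of 6414, 6291, 6595 and 5923 before and 8363, 7625, 8869 and 7487 after MG132 in the wild type. In knockout cells these were 9056, 8422, 9945 and 8557 untreated and 11327, 10571, 12001 and 10570.4 treated, each group above the wild-type group of the same treatment. The change was 0.36 (SE 0.06, adjusted p = 4.65e-05) and 0.31 (SE 0.06, adjusted p = 0.00025). Its probe set 1433563_s_at went the other way in wild-type cells, at -0.44 (SE 0.11, adjusted p = 0.00149), and rose in knockout cells, by 0.26 (SE 0.11, adjusted p = 0.044). The difference between responses was 0.70 (SE 0.15, adjusted p = 0.00207) on that probe set and -0.05 (SE 0.09, adjusted p = 0.728) on the chosen one. It did not pass on 1423082_at or 1415693_at.

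Sel1l, the adaptor that stabilises HRD1, gave an answer that depends on the probe set. On the chosen probe set the wild-type arrays read 3773, 3460.3, 3392 and 3546 without and 3021, 3051, 3333 and 3185 with MG132. The knockout arrays read 1862, 2025, 1889 and 1854 untreated and 1439, 1579, 1636 and 1596 treated, below every wild-type array. This signal was lower with MG132, with log2 changes of -0.17 (SE 0.06, adjusted p = 0.0111) and -0.29 (SE 0.06, adjusted p = 0.000141), whereas the probe sets 1425187_at, 1430692_a_at and 1453559_a_at rose in wild-type cells, by 0.41, 0.68 and 0.78. No direction is given here for the wild-type response of Sel1l. The lower level in the knockout, -0.89 (SE 0.06, adjusted p = 2.8e-11) untreated and -1.004 (SE 0.06, adjusted p = 3.73e-12) treated on the chosen probe set, was not reversed on any further probe set that passed the test.

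Syvn1, the HRD1 ligase itself, had signals of 2382 ± 123 untreated and 1988 ± 368 treated for the wild type, then 2192 ± 297 and 2571 ± 233 for the knockout, with overlap in every comparison. The changes were -0.28 (SE 0.11, adjusted p = 0.0305) and 0.23 (SE 0.11, adjusted p = 0.0657), and the difference between them was 0.51 (SE 0.15, adjusted p = 0.0158). The wild-type call was lost without 1 of 4 arrays (untreated replicates 2 and 4, treated replicates 1 and 3, adjusted p up to 0.137). Derl2 fell in wild-type cells, at -0.12 (SE 0.04, adjusted p = 0.021), a call lost without untreated replicate 4 (adjusted p = 0.0556) or treated replicate 3 (adjusted p = 0.0689), and had 0.01 (SE 0.04, adjusted p = 0.873) in knockout cells. Os9, the lectin that hands glycoproteins to the complex, passed in neither genotype, at -0.09 and 0.02.

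The EDEM proteins trim mannose from glycoproteins bound for degradation. Edem3 read 3527, 2874, 2848 and 3135 untreated and 2077, 2048, 2289 and 1927 treated on wild-type arrays, then 2044, 1997, 2135 and 2161 untreated and 1245, 1249, 1282 and 1241 treated on knockout arrays. Treated arrays were lower than untreated ones in each genotype, and knockout arrays lower than wild-type ones at each treatment. Edem3 fell, with log2 changes of -0.56 (SE 0.07, adjusted p = 2.67e-07) and -0.72 (SE 0.07, adjusted p = 8.2e-09), and so did Edem2, with -0.72 (SE 0.12, adjusted p = 1.54e-05) and -0.76 (SE 0.12, adjusted p = 9.4e-06). Edem1 differed from both in direction, with a rise in knockout cells of 0.35 (SE 0.07, adjusted p = 0.000266) and 0.15 (SE 0.07, adjusted p = 0.075) in wild-type cells, although its probe set 1451218_at gave 0.01 and -0.11.

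The last degradation members act between the membrane and the proteasome. Selenos, a selenoprotein that anchors p97 at the ER, rose by 0.31 (SE 0.05, adjusted p = 6.28e-06) and 0.34 (SE 0.05, adjusted p = 2.52e-06). Faf2, another p97 anchor, fell, with log2 changes of -0.16 (SE 0.06, adjusted p = 0.0206) and -0.29 (SE 0.06, adjusted p = 0.000153). The wild-type decrease of Faf2 was lost without untreated replicate 1 or 3 or treated replicate 2 (adjusted p up to 0.0788), and became 0.05 after centring. Ube4b, which extends ubiquitin chains, rose in knockout cells by 0.39 (SE 0.07, adjusted p = 6.47e-05) against 0.05 (SE 0.07, adjusted p = 0.524) in wild-type cells, a difference of 0.33 (SE 0.10, adjusted p = 0.0148). Its probe set 1432499_a_at rose in both, by 0.48 and 0.56.

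Each of the 3 signalling genes responded differently in the 2 genotypes. Xbp1, the transcription factor whose messenger IRE1 splices, read 9977, 10054, 10614 and 10067 on untreated and 9386, 9459, 10128 and 9695 on treated arrays of the wild type. In knockout cells it read 6454, 6236, 7110.1 and 6352 untreated and 14000.4, 13874, 14831 and 13248 with MG132. The wild-type groups overlapped, the untreated knockout arrays were the lowest of all, and the treated knockout arrays were the highest. The change was -0.07 (SE 0.05, adjusted p = 0.181) in wild-type and 1.10 (SE 0.05, adjusted p = 1.05e-13) in knockout cells, a difference of 1.17 (SE 0.07, adjusted p = 2.46e-10). The probe sets 1420886_a_at and 1420011_s_at gave 1.24 (SE 0.08, adjusted p = 2.82e-09) and 1.38 (SE 0.09, adjusted p = 1.6e-09) for that difference. The dim 1420012_at gave 0.54 (SE 0.31, adjusted p = 0.227). The files do not place the probes relative to the splice site, so spliced and unspliced Xbp1 were not separated.

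Ern1, which encodes IRE1, read 754, 605, 542 and 607 without and 1276, 1064, 1023 and 994 with MG132 on wild-type arrays, then 965, 1058, 812 and 878 untreated and 1209.7, 1171, 1212 and 1289 treated on knockout arrays. Treated arrays were higher in each genotype, and only the treated groups of the 2 genotypes overlapped among the 4 comparisons. Ern1 rose by 0.79 (SE 0.10, adjusted p = 8.82e-07) and 0.40 (SE 0.10, adjusted p = 0.0019). The smaller rise in the knockout, -0.39 (SE 0.14, adjusted p = 0.0467), was lost without any 1 of 11 of the 16 arrays (adjusted p up to 0.108). Without MG132 Ern1 was higher in the knockout on the chosen probe set, by 0.56 (SE 0.10, adjusted p = 8.57e-05). The dimmer 1421240_at and 1438583_at gave 0.04 (SE 0.22, adjusted p = 0.901) and 0.06 (SE 0.24, adjusted p = 0.852) there. Both rose in wild-type cells, 1421240_at also rose in knockout cells, and neither passed for the difference between responses. Wfs1, the ER membrane protein wolframin, had 818, 826, 695 and 778 before and 863, 847, 854 and 903 after MG132 in the wild type. In knockout cells it had 543, 792, 629 and 711 untreated and 298, 430.0, 384 and 355 treated, the latter below all other arrays. It fell in knockout cells, at -0.84 (SE 0.11, adjusted p = 1.86e-06), with 0.15 (SE 0.11, adjusted p = 0.245) in wild-type cells, a difference between responses of -0.99 (SE 0.16, adjusted p = 0.00011).

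**Figure D2:**
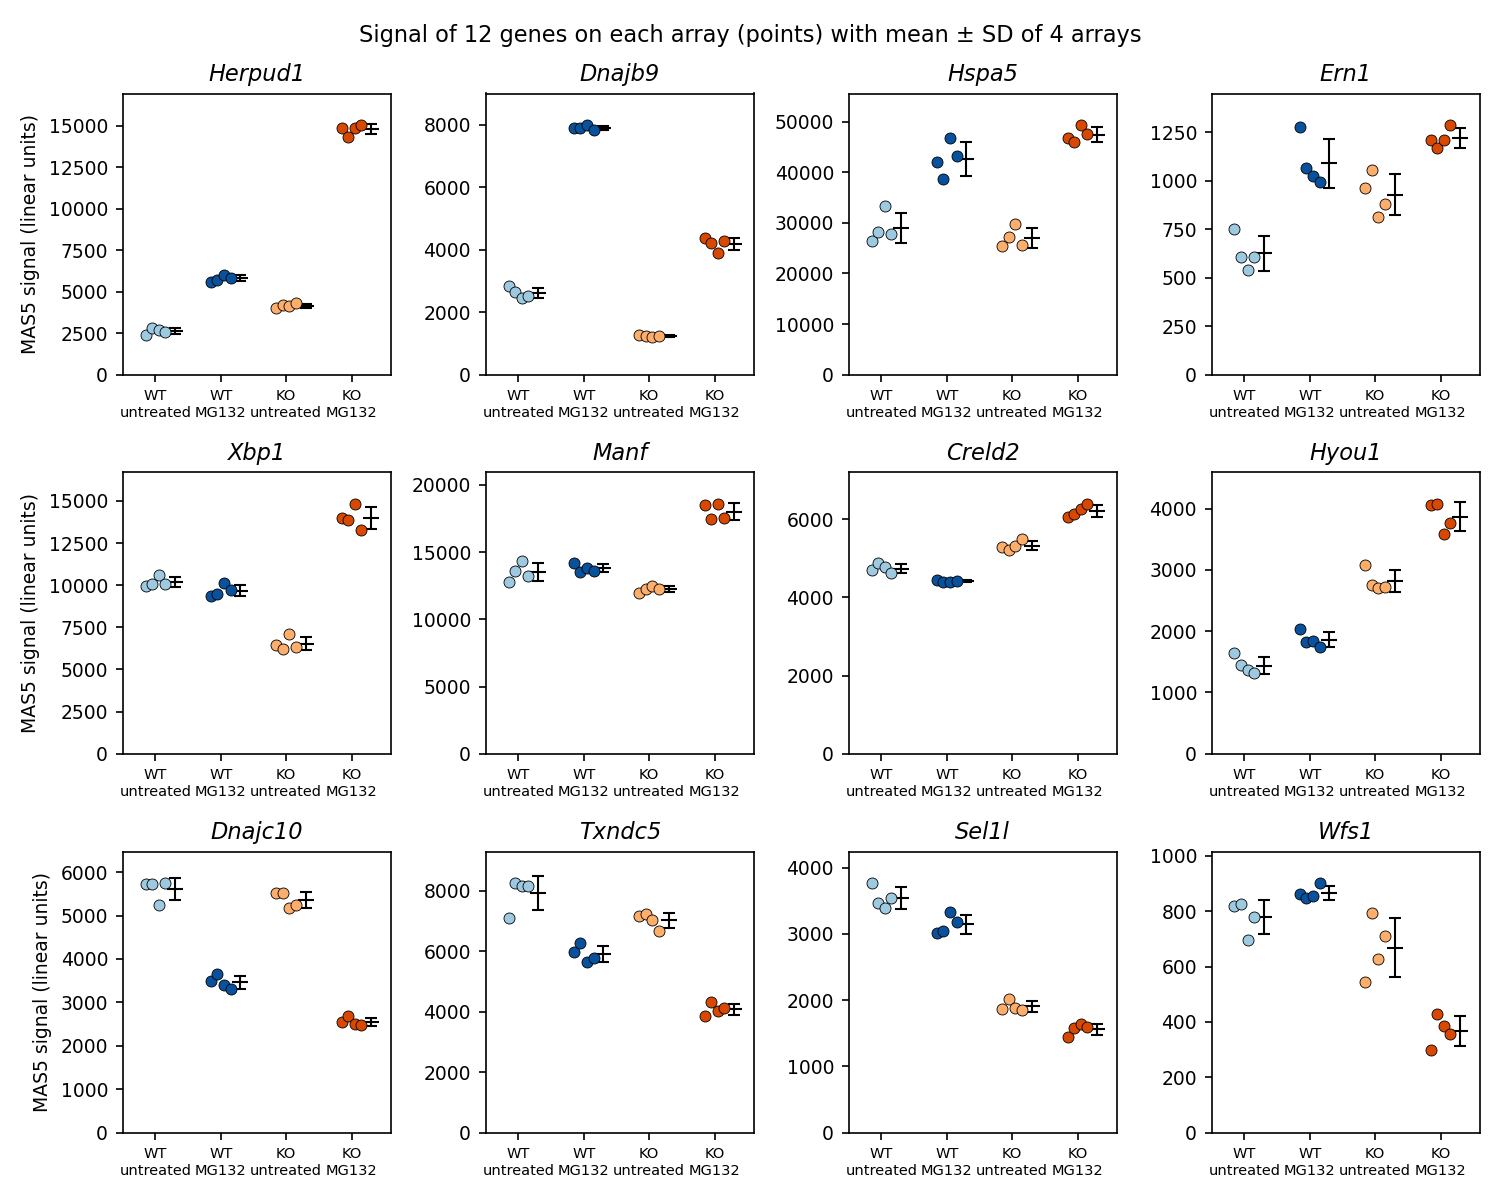
MAS5 signal of 12 members on each of the 16 arrays, on a linear axis from 0, in the 4 groups; a point is 1 array, and the bar beside the points is the mean with its SD. Herpud1 has 4 separate groups, Xbp1 and Manf rise in the knockout groups and overlap in the wild-type groups, and Dnajc10 and Txndc5 drop in both genotypes.

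The folding and degradation classes were then set side by side. In wild-type cells 10 of the 23 folding members rose and 6 fell (43.5% and 26.1%). Of the 12 tested degradation members 3 rose and 6 fell (25% and 50%), Sel1l being counted by its chosen probe set. Among all tested genes 27.2% rose and 36.9% fell. In knockout cells 13 folding members rose and 5 fell (56.5% and 21.7%), and 5 degradation members rose and 4 fell (41.7% and 33.3%). The shares of all tested genes there were 25.7% and 36.8%. The median log2 change was 0.11 for folding and -0.10 for degradation members for the wild type, and 0.25 and 0.13 for the knockout. For all tested genes it was -0.07 in each genotype. After centring on the array median the folding counts were 15 higher and 3 lower for the wild type and 16 and 5 for the knockout. The degradation counts were 5 and 2, then 7 and 4. Those of all 11451 tested genes were 4582 and 2860, then 3995 and 3167. The order of the 2 classes was the same under centring, with medians of 0.31 and 0.10 in wild-type and 0.39 and 0.27 in knockout cells. The difference between the classes was described and not tested.

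Array by array, each member was expressed as its deviation from its own mean over the 16 arrays, and the median was taken within a class. For folding members it was -0.13 to 0.00 on untreated and 0.05 to 0.16 on treated wild-type arrays, and -0.18 to -0.15 and 0.07 to 0.15 on knockout arrays. For degradation members it was 0.02 to 0.06 and -0.04 to 0.07 for the wild type, and -0.17 to -0.03 and 0.03 to 0.07 for the knockout. Treated and untreated arrays were thus separate for the folding class in both genotypes, and for the degradation class they were separate in the knockout and overlapped in the wild-type. These deviations were taken on the chosen probe sets, without centring on the array median. On that scale the degradation median of the wild-type response was -0.10. It was 0.10 after centring and 0.066 on averaging probe sets.

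**Figure D3:**
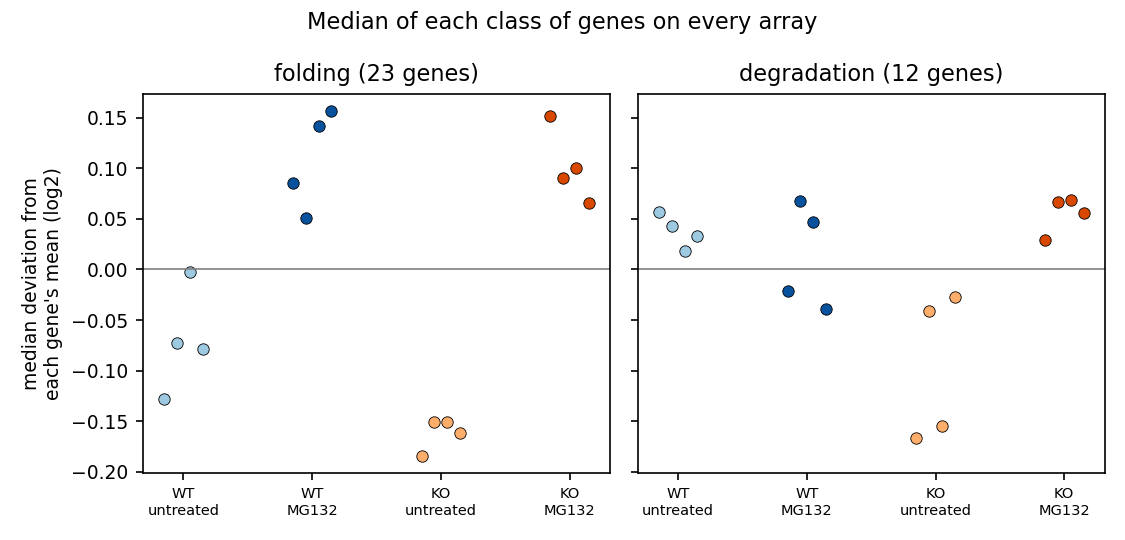
Median deviation (log2) of the folding and degradation members on each of the 16 arrays, by group, each member being centred on its own mean over the arrays. Treated folding medians lie above untreated ones in both genotypes, whereas the degradation medians of wild-type cells overlap. The arrays were not centred on their medians.

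The test of the difference between responses, knockout minus wild-type, addresses the aim of the study most directly. It passed for 13 of the 38 tested members, 8 higher and 5 lower in the knockout, against 14.2% and 14.1% of all genes. The 8 with a higher response were Pdia6, Sdf2l1, Creld2, Manf, Herpud1, Syvn1, Ube4b and Xbp1, and the 5 with a lower one were Dnajc10, Uggt1, Txndc5, Ern1 and Wfs1. Centring on the array median gave 7 and 7, and moved all genes from 1623 higher and 1616 lower to 1258 and 1998. The median difference over the members was 0.01, beside 0.00 for all genes. Of the degradation members 3 were higher and 0 lower, and of the folding members 4 were higher and 3 lower. The largest differences were those of Xbp1 (1.17), Wfs1 (-0.99) and Herpud1 (0.68). Differences that passed in every alternative and with every array left out were those of Dnajc10, Creld2, Manf, Txndc5, Herpud1, Syvn1 and Wfs1, although that of Txndc5 did not pass on its other probe set.

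Genotypes also differed in the absence of MG132. Among the untreated groups 9 members were higher and 14 lower in the knockout, against 28.6% and 26.9% of all genes. Centring on the array median changed this to 11 higher and 8 lower, and all genes from 3278 higher and 3085 lower to 3908 and 2505. With MG132 9 members were higher and 15 lower, against 30.7% and 28.1%. Lower in the knockout at both treatments were 10 members, led by Dnajb9, Pdia6 and Sel1l, with Dnajc3 at -0.53 (SE 0.08, adjusted p = 8.03e-06) untreated and Edem3 at -0.56 (SE 0.07, adjusted p = 4.14e-07). Higher at both were Hyou1, Herpud1, Derl1, Ppib and Creld2. Manf and Xbp1 were lower in the knockout without MG132 and higher with it.

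Of the 23 folding members, 9 (39.1%) were lower and 5 higher in the knockout untreated, and 10 (43.5%) and 4 treated. Of the 12 tested degradation members, 4 (33.3%) were lower and 3 higher untreated, and 4 and 4 treated. Among all tested genes 26.9% were lower and 28.6% higher untreated, and 28.1% and 30.7% treated. Some smaller differences rested on few arrays. Without MG132, the calls of Hspa13 (0.20 (SE 0.08, adjusted p = 0.031)), P4hb (-0.13 (SE 0.05, adjusted p = 0.0387)), Ero1l (-0.19 (SE 0.07, adjusted p = 0.027)) and Edem2 (0.30 (SE 0.12, adjusted p = 0.0326)) were lost with 1 of 5, 6, 4 and 5 arrays left out, at adjusted p up to 0.123, 0.136, 0.105 and 0.105. With MG132, those of Pdia3 (-0.15 (SE 0.06, adjusted p = 0.048)), P4hb (-0.15 (SE 0.05, adjusted p = 0.0173)) and Erp44 (-0.14 (SE 0.05, adjusted p = 0.0237)) were lost with 1 of 12, 1 and 3 arrays left out, at adjusted p up to 0.142, 0.0654 and 0.0909. Both genotype comparisons and the responses share the same arrays, so their counts are not independent of each other. The fibroblast markers moved with genotype as given above.

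**Figure D4:**
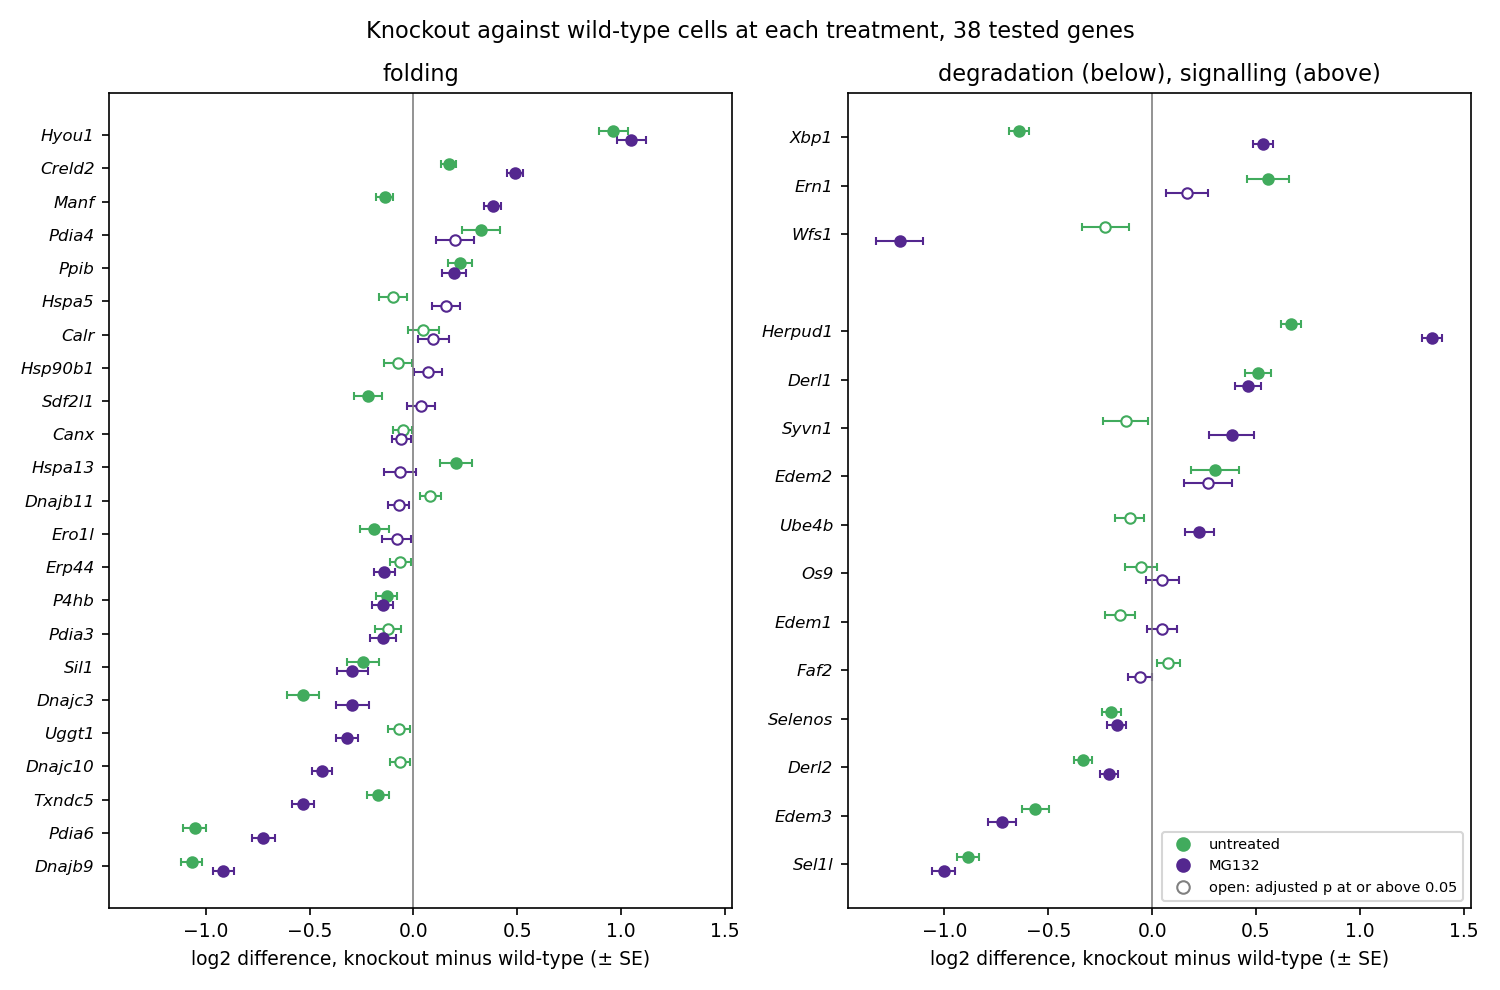
Log2 difference between knockout and wild-type cells of each tested member, without and with MG132, with the standard error of the fit; filled points passed the test. Hyou1 and Herpud1 lie farthest to the right at both treatments, Dnajb9 and Pdia6 farthest to the left without and Wfs1 and Sel1l with MG132, and Xbp1 and Manf change side.

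Several probe sets were available for 29 of the 39 members, 92 probe sets in all, and 47 of the further ones passed the filter. In the wild-type response 21 of these 47 passed in the same direction as the chosen probe set and 4 in the opposite one, 3 of Sel1l and 1 of Derl1. In the knockout response 29 passed in the same direction and 1, of Sel1l, in the opposite one. For the difference between responses 6 passed in the same and 0 in the opposite direction, with 41 not passed on at least 1 of the probe sets. Between genotypes 19 passed in the same direction untreated and 22 treated, with 0 opposite in each.

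The promoter elements shown above were set against the responses. Of the 10 tested members with an ERSE or ERSE-II, 5 rose and 3 fell in wild-type cells and 7 rose and 0 fell in knockout cells. Those 7 were Hspa5, Hsp90b1, Canx, Dnajb11, Dnajc3, Creld2 and Herpud1. The 3 that fell were Pdia6, Creld2 and Syvn1, and these decreases did not pass after centring on the array median. Calr and Dnajc3 then rose in the wild type, and Calr and Syvn1 in the knockout. The wild-type split thus depends on the scale. Dnajc3 also rose in the wild type on further probe sets, though not on 1449373_at. Of all tested genes 27.2% were higher and 36.9% lower in the wild-type response, and 25.7% and 36.8% in the knockout response. Of the 23 tested members whose window holds neither, 7 rose and 8 fell in wild-type cells, and 10 rose and 8 fell in knockout cells. The difference between responses was higher in the knockout for 4 of the 10, namely Pdia6, Creld2, Syvn1 and Herpud1, and lower for 0. It was higher for 3 and lower for 5 of the 23, beside 14.2% higher and 14.1% lower among all tested genes. These counts describe the list and were not tested, and a window without the letters says nothing of elements elsewhere.

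The same windows were searched on both strands for 3 other elements. TGACGTGG, the core of the unfolded protein response element, occurs in 222 windows (0.676%) and in 1 member, Txndc5, in 1 of its 3 windows. Its reverse complement begins with CCACG, so it can share bases with an ERSE. The core of the C/EBP-ATF element, TGATG and AA separated by 1 base, occurs in 1304 windows (3.97%) and in 3 members, Faf2, Herpud1 and Txndc5. The heat shock element, GAA, TTC and GAA separated by 2 bases each, was found in 198 windows (0.603%) and in 0 members.

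Other genes of the pathway were read from lists of 4 kinds. Of 10 sensors and proteases of the unfolded protein response, 5 rose and 5 fell in wild-type cells (50% each). In knockout cells 3 rose and 5 fell (30% and 50%). Creb3l2, a relative of ATF6, fell, with log2 changes of -1.77 (SE 0.14, adjusted p = 9.09e-10) and -1.19 (SE 0.14, adjusted p = 3.31e-07), and Traf2, an adaptor of IRE1, rose by 0.66 (SE 0.05, adjusted p = 9e-10) and 0.84 (SE 0.05, adjusted p = 2.73e-11). Of 22 genes of ER import and N-glycosylation 6 rose and 9 fell in wild-type cells (27.3% and 40.9%). In knockout cells 6 rose and 10 fell (27.3% and 45.5%). Centring on the array median changed these to 11 and 5, then 8 and 6. Spcs3, a signal peptidase subunit, fell, with log2 changes of -1.09 (SE 0.05, adjusted p = 4.72e-14) and -0.91 (SE 0.05, adjusted p = 1.01e-12).

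Of 23 further folding factors 8 rose and 11 fell in wild-type cells (34.8% and 47.8%), and 6 rose and 10 fell in knockout cells (26.1% and 43.5%). The shares of all tested genes are those given above. After centring on the array median 12 rose and 6 fell, then 7 and 6. Serpinh1, the collagen chaperone HSP47, rose by 0.77 (SE 0.05, adjusted p = 1.44e-11) and 0.59 (SE 0.05, adjusted p = 9.59e-10), and Erp29, a chaperone related to disulfide isomerases, fell, with log2 changes of -0.87 (SE 0.05, adjusted p = 7.01e-12) and -0.90 (SE 0.05, adjusted p = 4.88e-12). Of 22 further ERAD factors 10 rose and 7 fell in wild-type cells (45.5% and 31.8%). In knockout cells 9 rose and 9 fell (40.9% each). After centring these counts were 14 and 6, then 12 and 8. Ubxn4, a p97 anchor, rose by 1.31 (SE 0.06, adjusted p = 1.09e-13) and 1.13 (SE 0.06, adjusted p = 1.41e-12), and Erlin2, which helps degrade sterol-regulated proteins, fell, with log2 changes of -1.44 (SE 0.06, adjusted p = 2.58e-14) and -1.47 (SE 0.06, adjusted p = 2.12e-14).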

How the data were processed

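Total RNA was labelled by 3′ in vitro transcription and hybridised to 16 Affymetrix arrays, per the labels' protocols. The authors deposited 1 signal intensity for each probe set on each array, on a linear scale. The submitters' processing notes name MAS5 and give neither its version nor its parameters. The trimmed mean of each array is 1000, with 2% of the values trimmed at each end, so the arrays had been scaled to it. The number of arrays limits the precision.

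Of 45101 probe sets, 34945 named 1 gene, 932 named several, 9160 named none and 64 were array controls. Gene names came from the platform annotation, and 34741 single-gene probe sets matched the reference by gene ID. The probe set with the highest mean over the arrays stood for its gene. It was tested when above the array median on at least 4 of the 16 arrays.

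Signals were analysed as log2(signal + 16), which understates the changes of dim genes, with no further scaling. limma 3.58.1 in R 4.3.3 fitted 1 mean per group over all 16 arrays (12 residual and 7.65 prior degrees of freedom, variance moderated with a mean-variance trend), with two-sided tests of 5 contrasts, Benjamini-Hochberg adjustment over the 11451 genes in each and a threshold of 0.05. The fit was tested on simulated data. Further probe sets were fitted together and adjusted over all probe sets of 1 gene that passed the filter.

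The labels number the replicates in each group, and the main fit did not treat the numbers as pairs. Deviations from the group mean correlated at -0.07 to 0.16 (median 0.04) for pairs with the same number. For others they correlated at -0.17 to 0.13 (median -0.02). Above 0.1 were 5 of 24 pairs with the same number and 5 of 72 others. Shared variation by number was thus small and not excluded, and a fit with the number as a block is given below.

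The members and lists were chosen with earlier results of these data known, and no list was tested as a set. Values per array are given for the members with the 5 smallest adjusted p-values in each direction in the responses and their difference and the 3 smallest in the genotype contrasts, and for Hspa5, Xbp1, Ern1, Ero1l, Herpud1 and Dnajb9. Alternatives were other pseudocounts, no filter, median centring, quantile normalisation, the mean over probe sets, leaving out suffixed probe sets, no variance trend, a fit of only the groups compared, Dnajb9 and Dnajc10 counted as degradation members, a replicate block, and each array left out. Protein sequences were not used here.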

Additional observations from a re-analysis of the deposited data

Results flagged for a closer look

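In 9 of 156 groups of 4 arrays, 1 array stood apart from the other 3, its gap divided by the range of the group being above Dixon's critical value for a group of 4. Chance gives this in about 1 of 20 groups. The arrays were treated knockout replicate 4 for Hsp90b1 (lowest, 0.831) and Canx (lowest, 0.835), and untreated knockout replicate 1 for Hyou1 (highest, 0.848). In treated wild-type cells they were replicate 2 for P4hb (lowest, 0.866), Dnajb11 (highest, 0.875) and Os9 (highest, 0.834). In untreated wild-type cells they were replicate 3 for Dnajc10 (lowest, 0.951) and Xbp1 (highest, 0.853), and replicate 1 for Txndc5 (lowest, 0.917).

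The log2 response to MG132 differed between the genotypes, by the limma interaction test, for 13 members. It was higher in the knockout for Pdia6 (0.33), Sdf2l1 (0.26), Creld2 (0.32), Manf (0.52), Herpud1 (0.68), Syvn1 (0.51), Ube4b (0.33) and Xbp1 (1.17). It was lower for Dnajc10 (-0.37), Uggt1 (-0.25), Txndc5 (-0.36), Ern1 (-0.39) and Wfs1 (-0.99).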

How the results depend on the processing

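Of the members that passed in the wild-type response, 15 of 26 kept their call and direction under every alternative that gave them a value. The same held for 24 of 30 in the knockout response, 7 of 13 for the difference between responses, 12 of 23 between the untreated genotypes and 19 of 24 between the treated ones. Leaving out suffixed probe sets left 33 of the 38 tested members. Hspa5, Hsp90b1, Calr, P4hb and Selenos had no value there, so that alternative did not bear on them. Centring on the array median gave 22 members higher and 5 lower in the wild-type response, and 8 lower between the untreated genotypes. It moved the folding median to 0.31 in wild-type and 0.39 in knockout cells and -0.064 for the difference, and the degradation median to 0.10, 0.27 and 0.006. Averaging the probe sets of a gene gave folding medians of 0.19 (wild-type) and -0.05 (difference) and degradation medians of 0.066 and -0.004. Without suffixed probe sets the folding median was 0.034 in wild-type cells and -0.05 for the difference, and the degradation median was 0.016 in knockout cells, as it was with no filter on dim probe sets. Quantile normalisation gave a degradation median of -0.039 in wild-type cells.

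With 1 array left out, the degradation median ranged from 0.093 to 0.176 in knockout cells, the highest without treated knockout replicate 1. Sign changed under centring for the wild-type response of Creld2 (0.10), Sel1l (0.034), Derl2 (0.086) and Faf2 (0.047). It changed on averaging probe sets for Sel1l in wild-type cells (0.34), Uggt1 in knockout cells (-0.086), Edem2 between the untreated genotypes (-0.13), Ube4b between the treated ones (-0.056), and the differences between responses of Derl1 (0.20) and Ube4b (-0.089). Averaging also ended the calls of Uggt1, Edem2, Edem3 and Derl2 in wild-type cells, of Sel1l, Edem2, Ube4b and Ern1 in knockout cells, and of Pdia6, Uggt1 and Ern1 for the difference. The average took every probe set of a gene. For Uggt1, Edem2, Ube4b and Ern1 it included probe sets that did not pass the filter on dim probe sets. The causes were not tested. Without suffixed probe sets Xbp1 is left with its dim probe set, and its difference between responses was lost. With the replicate number as a replicate block, 15 members rose and 12 fell in wild-type cells, 22 and 10 in knockout cells, and 8 and 5 differed in response.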
